A study of Mus musculus with 6 samples.

Results

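Kruppel-like factors are zinc finger transcription factors, and 10 of their genes were followed in RAW264.7 cells, macrophage-like cells of a mouse line that the cytokine RANKL drives towards bone-resorbing osteoclasts. The genes were Klf2, Klf3, Klf4, Klf6, Klf7, Klf9, Klf10, Klf11, Klf13 and Klf16. They were taken by symbol from the 41921 rows of the deposited count table, and all 10 were among the 13158 genes that passed the filter on low counts. The members were chosen by symbol with earlier counts and fold changes of these libraries known. They are also the 10 genes of the family with the most counts, Klf2 (1060 counts over the 6 libraries) just inside and Klf8 (838 counts) just outside, so that they are expressed is no result.

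There were 3 libraries labelled albiflorin, a monoterpene glycoside of peony root, and 3 labelled RANKL. All 6 samples carry the label WT for genotype, the same label of osteoclast differentiation, and the same protocol text, in which RANKL is added at 50 ng/mL 3 days after the cells reach confluence. The dose and time of albiflorin, and whether it was given on top of RANKL, are not stated in the sources used here, and no untreated sample was analysed here. Libraries held 13708041 to 15200418 counts with albiflorin and 13673284 to 15489482 with RANKL. Nothing in the labels says that the replicates were separate cultures, so the p-values rest on a spread that may be technical. Of 9 macrophage markers with a row, 7 were tested and expressed in every library, while Itgam had at most 1 count and Mertk at most 3 in any library. Their summed level was 2129 to 2219 FPKM with albiflorin and 1772 to 1999 FPKM with RANKL. Most of it came from Csf1r, Cd68, Cd14 and Tyrobp. Total FPKM, given below, was also higher with albiflorin. By the edgeR test described below, 3 of the 7 were higher with albiflorin and 1, Adgre1, lower (log2 fold change -0.30, adjusted p = 0.00933). That was 57.1% called, against 23.8% of all tested genes. With the trend on mRNA length removed, 1 was higher and 1 lower, where over all tested genes 665 were higher and 725 lower. The part of these markers in the differences below was not tested. FPKM are counts divided by the gene length listed in the deposited table and by the library total, and serve here to compare levels between genes. Osteoclast markers summed to 49.1 to 52 FPKM over 10 genes with albiflorin and 46.4 to 49.9 FPKM with RANKL. Most of it came from Nfatc1, Acp5 and Dcstamp. Ctsk had at most 0.606 FPKM in any library, and the calcitonin receptor gene Calcr, a marker of mature osteoclasts, was at 0 throughout. By the same edgeR test 7 were tested and 28.6% called, against 23.8% of all tested genes. Acp5 was higher with albiflorin (0.29, adjusted p = 0.0371) and Nfatc1 lower (-0.22, adjusted p = 0.018). Neither was called with the trend on mRNA length or listed gene length removed. Markers of stromal, endothelial, lymphoid and epithelial cells summed to at most 0.677 FPKM each in any library.

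All Kruppel-like factors bind GC-rich and CACCC sequences through C2H2 zinc fingers at the C terminus, and differ in the N-terminal part that recruits activators or repressors. Klf2, Klf4, Klf6 and Klf7 are mostly activators, Klf3 recruits the corepressor CtBP, and Klf9, Klf10, Klf11, Klf13 and Klf16 carry a motif that binds the corepressor Sin3. In the mouse, KLF2 restrains the inflammatory activation of myeloid cells and KLF4 takes part in monocyte differentiation and alternative macrophage activation.

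Promoter windows are shown for 2 pairs that the results turn on, Klf2 beside its close relative Klf4, and Klf9 beside Klf13. Each is the 250 bases before the annotated start, 5′ to 3′ on the gene's strand, from RefSeq (GRCm38.p6). Klf2 is at chr8:72318812-72319061 (+ strand), Klf4 at chr4:55532476-55532725 (- strand), Klf9 at chr19:23140976-23141225 (+ strand) and Klf13 at chr7:63938916-63939165 (- strand). Capitals mark every match, on either strand, to the motifs named below.
Klf2: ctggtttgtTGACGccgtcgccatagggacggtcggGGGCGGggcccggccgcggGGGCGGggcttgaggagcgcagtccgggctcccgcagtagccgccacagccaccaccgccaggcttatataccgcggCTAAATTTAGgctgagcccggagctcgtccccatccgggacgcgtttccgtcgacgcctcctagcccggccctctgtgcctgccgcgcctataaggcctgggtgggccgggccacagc
Klf4: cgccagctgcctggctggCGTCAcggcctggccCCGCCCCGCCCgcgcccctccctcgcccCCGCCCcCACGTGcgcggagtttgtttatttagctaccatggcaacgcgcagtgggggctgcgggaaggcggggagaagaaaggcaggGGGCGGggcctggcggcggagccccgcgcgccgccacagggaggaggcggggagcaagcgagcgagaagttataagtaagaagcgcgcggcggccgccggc
Klf9: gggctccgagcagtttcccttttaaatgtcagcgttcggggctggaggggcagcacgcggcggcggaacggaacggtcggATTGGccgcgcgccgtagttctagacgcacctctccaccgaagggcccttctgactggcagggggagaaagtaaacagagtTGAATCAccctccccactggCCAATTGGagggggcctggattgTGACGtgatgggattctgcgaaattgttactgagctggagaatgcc
Klf13: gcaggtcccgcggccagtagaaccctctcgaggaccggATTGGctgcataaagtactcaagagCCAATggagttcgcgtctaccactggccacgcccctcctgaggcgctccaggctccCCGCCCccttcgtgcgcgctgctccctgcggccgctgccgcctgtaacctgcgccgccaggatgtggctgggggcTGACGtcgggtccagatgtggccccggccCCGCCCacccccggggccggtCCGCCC

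Windows of 250 bases before to 50 after the start were found for 8 of the 10 genes, all but Klf10 and Klf16, and were set beside all 32851 windows of the reference. The 8 windows had 58.3% to 77.7% G and C (median 70.7%), against a median of 52.7% over all windows, and 16 to 42 CpG dinucleotides, against a median of 7. Searched on both strands were the GC box GGGCGG, the CACCC boxes CCACACCC and, separately, CCCCACCC. For cyclic AMP response elements the whole site TGACGTCA and the shorter site TGACG were searched, so a match to the longer is also a match to the shorter. For AP-1 the motif was TGANTCA, for the TATA box it was TATAAA, for the CCAAT box the letters of its name, for the E-box it was CACGTG, and for ETS factors it was CCGGAAG. The CArG box was searched as CCWWWWWWGG, the MEF2 site as YTAWWWWTAR and the NF-kB site as GGGRNNYYCC. Here W is A or T, Y is C or T, R is A or G and N is any base. GGGCGG was found in 7 of 8 windows, where 35.7% of all windows hold it, and TGACG in 5 of 8 (20.8% of all). Of the 8 windows that of Klf2 alone held a MEF2 site, 118 bases before the start, where 3.19% of all windows hold one. Of the 8, the window of Klf9 alone held the AP-1 motif, where 7.81% of all windows hold one. CCAAT stood in 4 windows, among them those of Klf9 and Klf13 (37.4% of all). No window held TGACGTCA (1.79% of all), TATAAA (13.6%), a CArG box (1.63%), an NF-kB site (8.46%), CCACACCC (3.56%) or CCGGAAG (8.86%). CCCCACCC stood in 2 windows (9.99% of all) and CACGTG in 3 (7.15% of all). These are letter matches, not measured binding.

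Levels spanned more than an order of magnitude, and their order by group mean FPKM was the same in both groups. Klf6, which promotes inflammatory gene expression in macrophages, was highest, at 37.6, 34.6 and 39.5 FPKM in the albiflorin libraries, against 33.6, 36.7 and 33.5 FPKM in the RANKL libraries. Klf10 came next, then Klf9, Klf13, Klf16 and Klf4. Klf2, Klf11 and Klf7 lay between 3.21 and 9.74 FPKM over all libraries, and Klf3 was lowest, at 0.984 to 1.3 FPKM with albiflorin and 1.13 to 1.21 FPKM with RANKL. With albiflorin the ranges of Klf9 and Klf13, Klf13 and Klf16, Klf16 and Klf4, Klf4 and Klf2, and Klf11 and Klf7 overlapped across libraries. With RANKL the ranges of Klf9 and Klf13, Klf2 and Klf11, and Klf11 and Klf7 overlapped. Within a library the first 6 genes nonetheless kept their order in all 6 libraries, and Klf2, Klf11 and Klf7 changed places. This order rests on the listed gene lengths. They differ most from GENCODE M21 mRNA lengths for Klf3 (11238 nt listed, 5221 nt mRNA) and Klf9 (3263 nt listed, 4486 nt mRNA). Per kb of mRNA, a scale added after seeing the data, Klf9 stood at 10.6 ± 1.35 CPM per kb with albiflorin and 13.4 ± 0.693 with RANKL (SD, n = 3 each), under Klf13 (12.5 ± 1.59 with albiflorin, 17.3 ± 0.861 with RANKL). With albiflorin it was also under Klf16 (11.8 ± 0.707). Klf3 stayed lowest, at 2.53 ± 0.352 with albiflorin and 2.55 ± 0.0998 with RANKL. On this scale the order was not the same in both groups. Klf2 was in place 7 with albiflorin and 9 with RANKL, and Klf7 in place 9 with albiflorin and 7 with RANKL.

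**Figure D1:**
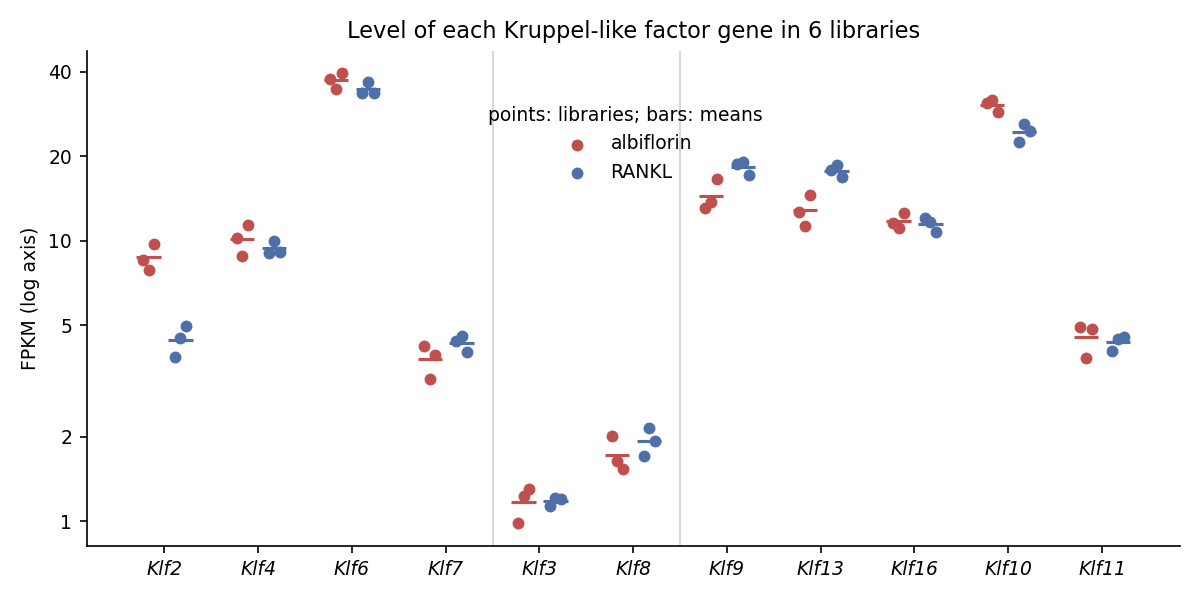
Level in FPKM (log axis) of the 10 Kruppel-like factor genes and of Klf8, by subfamily, in the albiflorin (red) and RANKL (blue) libraries; points are libraries and bars group means (n = 3 each). The groups stand apart for Klf2, Klf9, Klf13 and Klf10, and overlap for the others.

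Klf13 had 12.6, 11.3 and 14.6 FPKM with albiflorin and 17.9, 18.6 and 16.8 FPKM with RANKL, and Klf10 30.9, 31.8 and 28.8 FPKM with albiflorin and 22.5, 26.1 and 24.6 FPKM with RANKL. Klf10 stood under Klf6 in each of the 6 libraries.

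The summed level of the 10 genes was 134.7, 127.5 and 143.1 FPKM in the albiflorin libraries, against 127.1, 136.9 and 126.7 FPKM in the RANKL libraries, so the groups overlapped. Its make-up differed. Klf2 made up 6.44% ± 0.332 of the sum with albiflorin and 3.41% ± 0.468 with RANKL (SD, n = 3 each, as in the next values). The share of Klf10 was 22.7% ± 2.44 with albiflorin and 18.7% ± 0.908 with RANKL. Klf9 made up 10.7% ± 0.941 with albiflorin against 14% ± 0.599 with RANKL, and Klf13 9.46% ± 0.671 with albiflorin against 13.6% ± 0.4 with RANKL. Klf6 made up 27.5% ± 0.354 with albiflorin against 26.6% ± 0.221 with RANKL. Total FPKM was higher with albiflorin (359240 to 383188) than with RANKL (324298 to 339841). Rescaled to the same total in every library, the sum was 366.3 ± 32.8 with albiflorin and 392.2 ± 26 with RANKL. By branch, Klf9, Klf13 and Klf16 together had 37.3, 36.1 and 43.7 FPKM in the albiflorin libraries, against 48.6, 49.3 and 44.7 FPKM in the RANKL libraries. Klf10 and Klf11 together had 35.9, 35.6 and 33.6 FPKM with albiflorin and 26.5, 30.6 and 29.1 FPKM with RANKL. These branches, which bind the same corepressor, stood apart between the groups in opposite directions in FPKM. Their total was 73.2, 71.7 and 77.3 FPKM with albiflorin, against 75.1, 79.8 and 73.9 FPKM with RANKL, which overlapped. Both sums depended on the scale. Rescaled to the same total in every library, the sum of all 5 genes did not overlap (199.9, 187.1 and 215.2 with albiflorin, 221.1, 246.2 and 222 with RANKL), and that of Klf10 and Klf11 did (98, 93 and 93.5 with albiflorin, 78.1, 94.3 and 87.6 with RANKL).

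**Figure D2:**
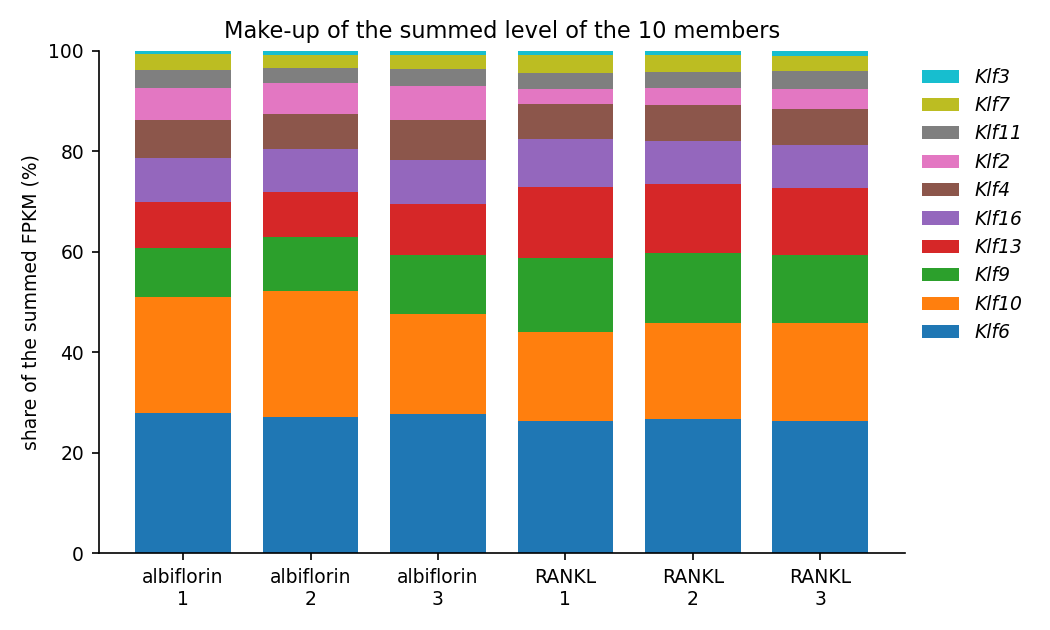
Share of each gene in the summed FPKM of the 10 Kruppel-like factor genes (stacked to 100%), 1 bar per library. The bands of Klf2 and Klf10 are wider and those of Klf9 and Klf13 narrower in the 3 albiflorin libraries.

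Set against all genes, 2 of the 10 members were higher (Klf2 and Klf10) and 2 lower (Klf13 and Klf9) with albiflorin by edgeR's quasi-likelihood test at a Benjamini-Hochberg adjusted p under 0.05. Over all 13158 tested genes 23.8% were called, 12.4% higher and 11.4% lower. The same 4 members were those whose libraries did not overlap, which held for 40.1% of all tested genes (20.8% higher, 19.3% lower with albiflorin). The median log2 fold change was 0.05 over the members and 0.006 over all tested genes. Since the members were chosen with these results known, the counts are a description. In bulk RNA, fewer cells expressing a gene and less of its RNA per cell cannot be told apart. In what follows CPM are counts scaled to the TMM-adjusted library total, fold changes are albiflorin over RANKL on the log2 scale with their SE, and each adjusted p is from that edgeR fit.

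**Figure D3:**
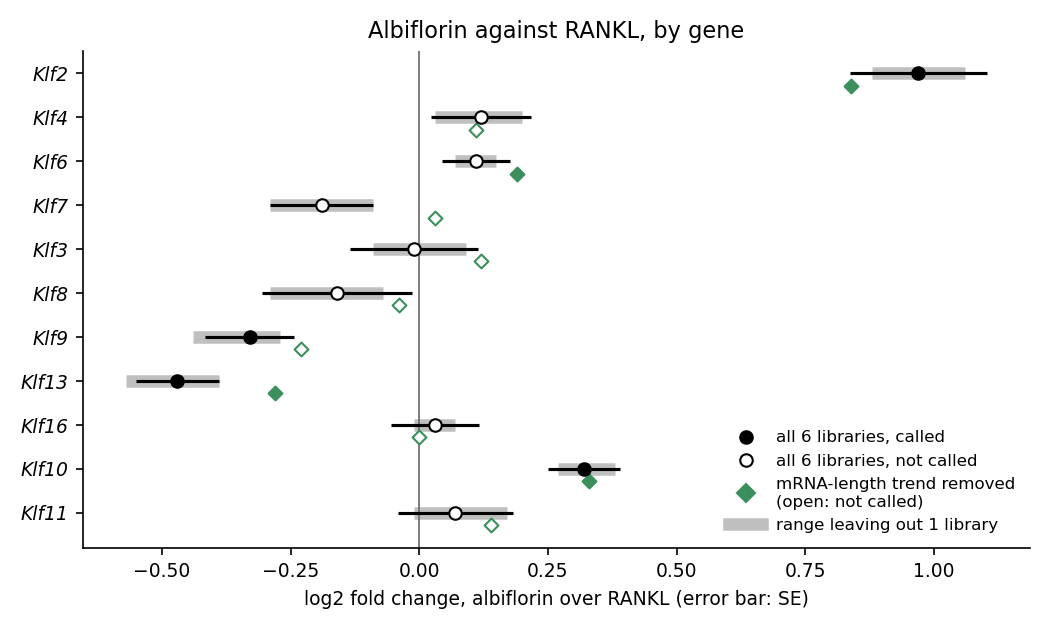
Log2 fold change, albiflorin over RANKL, of the 10 genes and Klf8 (points with SE; filled where called at an edgeR adjusted p under 0.05), the range over fits that leave out 1 library (grey), and the value with the mRNA-length trend removed (diamonds). Klf2 lies near 1, Klf10 above 0 and Klf9 and Klf13 below 0; the others lie within 0.2 of 0.

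Among the activator group only Klf2 was called. Klf2 (MGP_C57BL6NJ_G0034275, chromosome 8, 75561807 to 75564430 in the deposited table) had 241, 197 and 257 counts in the albiflorin libraries, against 97, 131 and 137 in the RANKL libraries. This was 16.2 ± 1.73 CPM with albiflorin and 8.24 ± 1.07 CPM with RANKL (SD, n = 3 each). Every albiflorin library was above every RANKL library, and the fitted ratio was 1.96 (log2 fold change 0.97 ± 0.133, adjusted p = 0.000327). Its relative Klf4 (chromosome 4, 56199518 to 56205320) had 31.6, 27.3 and 34.9 CPM in the albiflorin libraries, against 27.7, 30.8 and 28.1 CPM in the RANKL libraries, and these overlapped (0.12 ± 0.0975, adjusted p = 0.427). Within each library, the FPKM of Klf2 was 0.833, 0.889 and 0.856 times that of Klf4 with albiflorin, and 0.425, 0.449 and 0.545 times with RANKL. The ratio was higher in every albiflorin library than in any RANKL library, and was not tested.

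Klf6 (chromosome 13, 2560579 to 2569477) stood at 158.1 ± 9.99 CPM with albiflorin and 146.5 ± 7.62 CPM with RANKL and was not called (0.11 ± 0.0656, adjusted p = 0.247). In the fit that removes the trend on mRNA length, described below, it was called higher (0.19, adjusted p = 0.0306). Klf7, known for its role in neuronal growth (chromosome 1, 66684264 to 66778548), stood at 30.9 ± 4.2 CPM with albiflorin and 35.3 ± 2.39 CPM with RANKL (-0.19 ± 0.0998, adjusted p = 0.188). Its lowest value, 26.3 CPM, was in albiflorin replicate 2, and the groups overlapped. The CtBP-recruiting Klf3 (chromosome 5, 67071906 to 67103045) stood at 13.2 ± 1.84 CPM with albiflorin and 13.3 ± 0.521 CPM with RANKL (-0.01 ± 0.124, adjusted p = 0.961).

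The 5 Sin3-binding members did not move one way. Klf10, induced early by TGF-beta and also called TIEG1 (chromosome 15, 38234675 to 38241422), was higher. It had 95, 97.7 and 88 CPM in the albiflorin libraries, against 68.8, 79.8 and 75.3 CPM in the RANKL libraries (0.32 ± 0.0702, adjusted p = 0.0039). All albiflorin libraries were above all RANKL libraries. Its closest relative Klf11, also called TIEG2 (chromosome 12, 23014908 to 23026311), had 21, 16.3 and 20.5 CPM with albiflorin and 17.1, 18.9 and 19.3 CPM with RANKL (0.07 ± 0.112, adjusted p = 0.723). The albiflorin libraries of Klf11 lay on both sides of the RANKL libraries.

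Klf13 and Klf9, which belong to the BTEB branch, were lower. Klf13, first described as an activator of the chemokine gene Ccl5 in T lymphocytes (chromosome 7, 67781872 to 67842988), had 78.7, 70.7 and 90.8 CPM in the albiflorin libraries, against 111.5, 115.8 and 104.9 CPM in the RANKL libraries. The groups did not overlap, and the ratio was 0.723 (-0.47 ± 0.0803, adjusted p = 0.000979). Klf9, a gene that glucocorticoids induce in many tissues (chromosome 19, 21959912 to 21988627), had 43.2, 45.2 and 54.6 CPM with albiflorin and 61.3, 62.1 and 56.3 CPM with RANKL (-0.33 ± 0.0859, adjusted p = 0.0113). Albiflorin replicate 3 came within 2 CPM of RANKL replicate 3. The call of Klf9 ended without albiflorin replicate 1 (adjusted p = 0.0683) or RANKL replicate 2 (adjusted p = 0.0539). Klf16, another BTEB gene (chromosome 10, 84000286 to 84010479), had 31.2, 29.9 and 33.6 CPM with albiflorin and 32.2, 31.4 and 28.9 CPM with RANKL (0.03 ± 0.0858, adjusted p = 0.819). The FPKM of Klf13 was 1.09, 1.02 and 1.16 times that of Klf16 in the albiflorin libraries, against 1.49, 1.59 and 1.57 times in the RANKL libraries. Klf10 was 2.46, 2.82 and 1.98 times Klf13 with albiflorin, against 1.26, 1.4 and 1.46 times with RANKL.

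Fold changes in these libraries followed mRNA length, which bears on each member. Among tested genes with an mRNA of 1000 to 2000 nt the median log2 fold change was 0.18 and 29.7% were called higher, and among those of 6000 to 8000 nt the median was -0.22 and 45.2% were called lower. Klf2 (1847 nt) lay above the 95th percentile of its length class (0.53). Klf10 (3044 nt), near the lower bound of its class, at 0.32 lay just above the 95th percentile of genes of 3000 to 4000 nt (0.30). It lay under that of genes of 2000 to 3000 nt (0.37). Klf13 (6396 nt, -0.47) lay above the 5th percentile of its class (-0.50), as did Klf9 (4486 nt, -0.33) in the class of 4000 to 5000 nt (-0.37). With the trend on mRNA length removed from each library, the values were 0.84 for Klf2 (adjusted p = 0.00178), 0.33 for Klf10 (adjusted p = 0.00532) and -0.28 for Klf13 (adjusted p = 0.00836). Klf9 then missed the threshold (-0.23, adjusted p = 0.0574), but it passed with the trend on the listed gene length removed (-0.37, adjusted p = 0.00636), which for Klf9 is 3263 nt. The value of Klf7 (7662 nt) was 0.03 with the mRNA-length trend removed. The part of length in these differences was not tested beyond these fits.

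**Figure D4:**
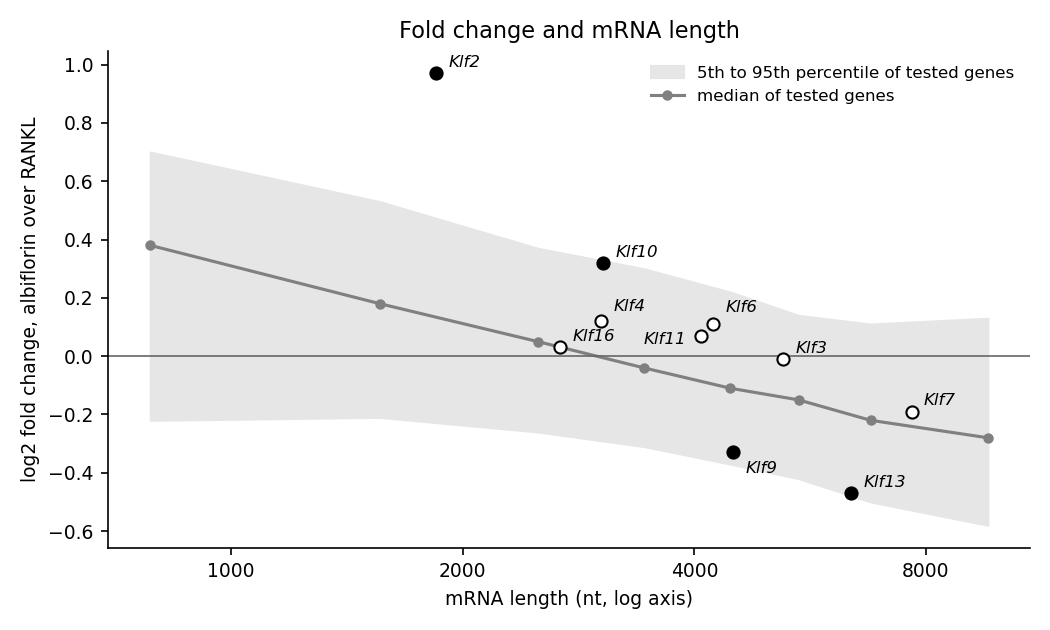
Log2 fold change, albiflorin over RANKL, against mRNA length (log axis): median and 5th to 95th percentile of tested genes in 8 length classes, and the 10 Kruppel-like factor genes (filled where called). Klf2 lies above the band, Klf10 at its upper edge, and Klf9 and Klf13 just inside its lower edge.

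Of the other genes of the family, Klf8, which like Klf3 recruits CtBP, was tested and not called, at 9.06 ± 1.32 CPM with albiflorin and 10.1 ± 1.13 CPM with RANKL (-0.16 ± 0.146, adjusted p = 0.476). Klf1, the erythroid member, had 40 counts over the 6 libraries, Klf5 had 3, Klf14 had 2 and Klf15 had 1. Klf12 had 0 counts in each library, a count that still permits 0.223 CPM in the library with the highest floor (3 counts, counting error only).

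The called members lie on 4 different chromosomes, and their neighbours did not move with them in common. The nearest tested protein-coding genes on either side of Klf2, Ap1m1 (0.07 ± 0.0619, adjusted p = 0.456) and Eps15l1 (-0.12 ± 0.0641, adjusted p = 0.189), were not called. Beside Klf10, Azin1 was lower (-0.20 ± 0.0611, adjusted p = 0.0244), opposite to Klf10. On the sides of Klf13, Ube3a was lower (-0.32 ± 0.0857, adjusted p = 0.0129) at a distance of 4920.92 kb. Trpm1, at 242.18 kb, was not called (0.08 ± 0.302, adjusted p = 0.884). Beside Klf9, Tmem2 was lower (-0.28 ± 0.0977, adjusted p = 0.0466) at a distance of 1367.39 kb and Smc5 was not called (adjusted p = 0.163). No other row of the deposited table overlapped Klf2, Klf4, Klf6, Klf10, Klf11 or Klf16, and rows that overlapped the other 4 had at most 36 counts over the 6 libraries. At most 0.268% of the 50-base words of any member's mRNA in GENCODE M21 (GRCm38) occurred in a transcript of another gene.

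The pentamer ATTTA, found in the 3′ untranslated regions of many short-lived mRNAs, did not set the called members apart. There were 1.36 ATTTA per kb in Klf2, 2.68 in Klf10, 2.48 in Klf9 and 0.582 in Klf13, and 1.02 to 2.87 in the other 6, against a median of 1.26 over 10222 tested genes. The nonamer TTATTTATT, held by 7.55% of those genes, was found in Klf16 alone (chr10:80568231-80568251, - strand, GRCm38, shown with its flanks, nonamer in capitals).
Klf16: aagaaaTTATTTATTgtcctc

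By their profile over the 6 libraries, the genes most like Klf2 were Ppp1r15a, Junb and Socs3. They came out of 9486 genes compared by the root mean square difference of centred log2 CPM. As they were chosen by this profile, their fold changes and adjusted p follow from the choice and are a description. Junb, an AP-1 subunit, had 218.0, 189.5 and 212.8 CPM with albiflorin and 108.3, 96.7 and 117.4 CPM with RANKL (0.94 ± 0.0761, adjusted p = 4.42e-06). The stress-induced phosphatase subunit gene Ppp1r15a had 44.7, 36 and 47.4 CPM with albiflorin and 23.1, 23 and 27.2 CPM with RANKL (0.81 ± 0.106, adjusted p = 0.000284). Socs3, an inhibitor of cytokine signalling, had 38.5, 34.8 and 45.5 CPM with albiflorin and 23, 22.9 and 25.8 CPM with RANKL (0.73 ± 0.102, adjusted p = 0.000368). In Klf2, Ppp1r15a and Socs3 albiflorin replicate 3 was the highest library. The root mean square differences were 0.114 for Ppp1r15a, 0.127 for Junb and 0.137 for Socs3.

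Klf13 was matched more closely, by Mgat5 (0.0125), which branches N-glycans, the deubiquitinase gene Usp9x (0.0219) and Utp14b (0.0287). Mgat5 had 26.3, 23.5 and 30.6 CPM with albiflorin and 37.4, 39.6 and 35.8 CPM with RANKL (-0.49 ± 0.097, adjusted p = 0.00232). In Klf13 and these 3 genes albiflorin replicate 2 was lowest and RANKL replicate 2 highest. The genes most like Klf9 were Atg2b (0.0309), Kremen1 (0.0333) and Thada (0.0348). Many genes share these differences between libraries, so a small distance is a description and no sign of shared control. The fold change and adjusted p of Mgat5 likewise follow from the choice by profile.

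**Figure D5:**
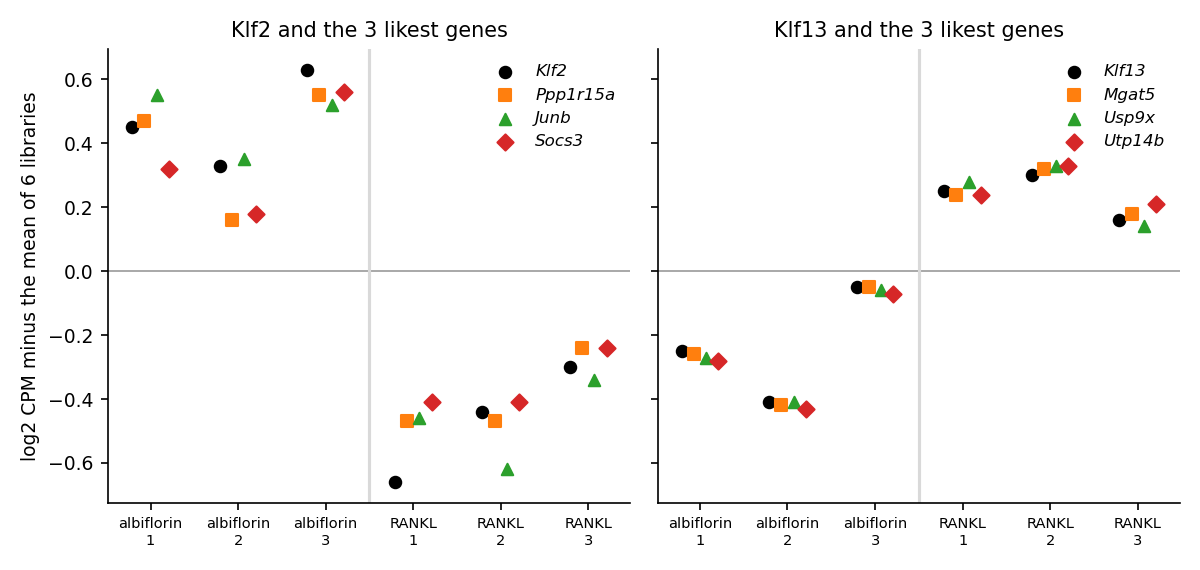
Log2 CPM minus the mean of the 6 libraries for Klf2 (left) and Klf13 (right) with the 3 genes of most similar profile. Klf2, Ppp1r15a, Junb and Socs3 are above 0 in the 3 albiflorin libraries and below 0 in the 3 RANKL libraries. Klf13 and its likest genes are the reverse. The likest genes were chosen by this profile, so their separation follows from the choice.

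Genes that work with Kruppel-like factors were read from lists, which were chosen with earlier results of these data known. Of 4 tested SP factors, the nearest relatives of the family, Sp1 was lower (-0.21 ± 0.0696, adjusted p = 0.0405) and the others not called. This was 25% called, against 23.8% of all tested genes. How firm each call is was read from the same 16 alternative fits as for the members, among them fits that remove the trend on mRNA length or on listed gene length. Sp1 was called in 7 of the 16, and in neither length fit. Of 22 cofactors and ubiquitin ligases 3 were higher and 4 lower (31.8% called, against 23.8% of all tested genes; median -0.06). The corepressor gene Ncor1 (-0.40 ± 0.0754, adjusted p = 0.00181), the acetyltransferase gene Ep300 (-0.62 ± 0.104, adjusted p = 0.000856) and the KLF2 ubiquitin ligase gene Wwp1 (-0.31 ± 0.0662, adjusted p = 0.00344) were lower. Ep300 was called in all 16 alternatives, and Ncor1 and Wwp1 in 15, all but the fit without the mRNA-length trend (adjusted p = 0.0806 for Ncor1 and 0.151 for Wwp1). Of the genes for the corepressors that give the subfamilies their names, chosen here after their values were seen, Sin3b was higher (0.23 ± 0.0726, adjusted p = 0.03) and was called in 10 of the 16 alternatives, both length fits included. Sin3a (-0.12, adjusted p = 0.141), Ctbp1 (0.05, adjusted p = 0.606) and Ctbp2 (-0.04, adjusted p = 0.7) were not called.

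Of 17 inputs to Klf2 and immediate-early transcription, 0 were higher and 6 lower (median -0.14, 35.3% called, against 23.8% of all tested genes). The lower genes numbered 3 without the mRNA-length trend, 1 without the gene-length trend and 2 to 8 in fits that left out 1 library. Over all tested genes the lower also fell, from 1496 to 725 without the mRNA-length trend and 1048 without the gene-length trend. They numbered 914 to 1644 in fits that left out 1 library. In other cells ERK5 and MEF2 factors drive Klf2 through the MEF2 site in its promoter. Mef2d stood at 180.8 ± 13.9 CPM with albiflorin and 217.0 ± 3.67 CPM with RANKL (-0.26 ± 0.0645, adjusted p = 0.00818), and Mef2c at 411.0 ± 21.5 CPM with albiflorin and 481.7 ± 33.6 CPM with RANKL (-0.23 ± 0.0671, adjusted p = 0.021). Mef2a, chosen after its value was seen, was lower too (-0.20 ± 0.0628, adjusted p = 0.028). These calls depended on the length used. Without the mRNA-length trend Mef2d (-0.41, adjusted p = 0.00159) and Mef2c (-0.27, adjusted p = 0.0103) were called, and without the gene-length trend Mef2d (-0.15, adjusted p = 0.0662) and Mef2c (0.01, adjusted p = 0.957) were not. Of the 16 alternatives 15 called Mef2d, 10 Mef2c and 8 Mef2a. Hdac4, which represses MEF2 (-0.48 ± 0.103, adjusted p = 0.004), and Foxo1 (-0.35 ± 0.0993, adjusted p = 0.0189) were lower, but not called in either length fit. Mapk7, which encodes ERK5, was not called (0.09, adjusted p = 0.53, chosen after its value was seen).

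Of 21 genes that KLF2 or KLF4 are known to regulate in some cell type, 9 were tested. Of these, 5 were higher and 0 lower (median 0.22, 55.6% called, against 23.8% of all tested genes). The list does not part genes that KLF2 or KLF4 activate from genes they repress, so its counts are no readout of either factor. The higher genes numbered 3 in each length fit and 2 to 4 in fits that left out 1 library. Over all tested genes the higher also fell, from 1631 to 665 without the mRNA-length trend and 945 without the gene-length trend. They numbered 984 to 1753 in fits that left out 1 library. Tnf, an inflammatory cytokine gene whose activation KLF2 restrains, stood at 70.9 ± 8.09 CPM with albiflorin and 44.1 ± 7.81 CPM with RANKL and was higher (0.68 ± 0.107, adjusted p = 0.000589). The chemokine gene Ccl5 was higher, at 3.58 ± 1.02 CPM with albiflorin and 1.73 ± 0.444 CPM with RANKL (1.03 ± 0.284, adjusted p = 0.0153). The inducible nitric oxide synthase gene Nos2 (0.32 ± 0.106, adjusted p = 0.0365) and the cell cycle inhibitor gene Cdkn1a (0.22 ± 0.0665, adjusted p = 0.0225) were also higher. Tnf was called in all 16 alternatives, Ccl5 and Nos2 in 10 and Cdkn1a in 9, and neither Ccl5 nor Cdkn1a was called in a length fit. The endothelial KLF2 target gene Nos3 (-0.48, adjusted p = 0.459) and S1pr1 (-0.09, adjusted p = 0.53), chosen after their values were seen, were not called.

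Of 14 TGF-beta and SMAD genes 1 was higher and 1 lower (14.3% called, against 23.8% of all tested genes). Tgif1 was the higher (0.28 ± 0.071, adjusted p = 0.00933) and Ski the lower (-0.27 ± 0.0601, adjusted p = 0.00415), both encoding SMAD corepressors. Neither was called without the mRNA-length trend (adjusted p = 0.296 for Tgif1 and 0.133 for Ski), and both were without the gene-length trend (adjusted p = 0.00318 for Tgif1 and 0.0155 for Ski). Of 9 tested glucocorticoid receptor genes and targets 3 were higher and 2 lower (55.6% called, against 23.8% of all tested genes). Dusp1 (2.45 ± 0.309, adjusted p = 0.00023), Zfp36 (1.65 ± 0.142, adjusted p = 8.46e-06) and Cebpb (0.31 ± 0.0648, adjusted p = 0.00314) were higher, and Dusp1 ranged from 8.17 to 26.8 FPKM with albiflorin, against 2.61 to 3.39 FPKM with RANKL. Fkbp5 was lower like Klf9 (-0.25 ± 0.0717, adjusted p = 0.0204) and was called in 8 of the 16 alternatives. Dusp1 and Zfp36 were called in all 16, and Cebpb and Fkbp5 in neither length fit.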

How the data were processed

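Gene counts and FPKM of 6 RAW264.7 libraries (3 albiflorin, 3 RANKL) were analysed, grouped by sample title and matched to columns by group letter and replicate number. The counts were deposited as raw whole numbers per gene. The FPKM were deposited by the authors and equal the counts over the listed gene length and 1 total per library (99.05% to 101.65% of the column total). Per the submitters' processing notes, the tools were DESeq2 1.42.0, HISAT2 2.2.1, CASAVA 1.8, featureCounts 2.0.6-p3 and fastp, named with no role or order. Neither genome build nor use of strand is given in the sources used here. Coordinates of genes are those of the deposited table, whose identifiers carry the Ensembl C57BL/6NJ prefix, and they are not those of GRCm38.

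Counts were tested with edgeR 4.0.16 (R 4.3.3): filterByExpr, TMM scaling, quasi-likelihood F-test on group alone, Benjamini-Hochberg adjustment over all 13158 tested genes, threshold 0.05. SE is the absolute log2 fold change over the square root of F. Tested on data drawn from the libraries' own means, the fit recovered 38.8% of genes changed 1.25-fold and 87.8% of those changed 2-fold. The drawn data held 50 changed genes at each fold and no trend on length. In the real libraries 23.8% of tested genes were called and fold changes followed length. These rates therefore need not hold for the real fit. Alternatives were RLE scaling, DESeq2, limma-voom (limma 3.58.1), 2 filters, a replicate block and fits without 1 library. Others were limma fits of FPKM on the log2 scale with 1 or 0.1 added. The length fits removed, through offsets, a lowess trend (span 0.3, genes with mean log2 CPM over 3) on gene length or on mRNA length. The mRNA length was that of the principal GENCODE M21 transcript, matched by symbol. Genes without a match took the listed gene length in the mRNA-length fit and were left out of the length classes.

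Named were every family gene, from each list at most the 4 called genes of smallest p, the 3 genes of most similar profile (mean CPM of 5 or more, 0.5 added before logs) for the 3 members with the largest fold change, and the neighbours of called members; other names were chosen after their values were seen, as said beside them. The members and lists were chosen with earlier results of these data known. Klf17 and 24 rows whose symbols had become dates were not analysed here, and some results that the naming rule covers are not reported here.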

Additional observations from a re-analysis of the deposited data

How the results depend on the processing

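Klf2, Klf10 and Klf13 kept their direction and call under all 16 alternatives, from 0.80 to 1.06 for Klf2, 0.26 to 0.38 for Klf10 and -0.57 to -0.28 for Klf13. Klf9 kept its direction (-0.44 to -0.23) and lost its call with the mRNA-length trend removed (-0.23) and without albiflorin replicate 1 (-0.27) or RANKL replicate 2 (-0.30). Klf6 gained a call with the mRNA-length trend removed (0.19). Values near 0 that were never called changed sign under some alternative, for Klf3 (-0.09 to 0.18), Klf7 (-0.29 to 0.03), Klf11 (-0.01 to 0.17) and Klf16 (-0.06 to 0.07). The number of lower members was 1 with the mRNA-length trend removed and 1 to 2 leaving out 1 library. Members higher were 3 with the mRNA-length trend removed and 2 under every other alternative. Over all genes, leaving out 1 library gave 984 to 1753 higher and 914 to 1644 lower, against 1631 and 1496 with all 6. The count fell by more than 1.5 times without RANKL replicate 2 (1010 higher, 914 lower), albiflorin replicate 1 (984 and 977) or albiflorin replicate 2 (1025 higher). The mRNA-length trend removed left 665 and 725, the gene-length trend removed 945 higher, log2(FPKM + 1) 901 lower and log2(FPKM + 0.1) 909 lower. The summed level of the members had a log2 ratio of 0.05 in FPKM, -0.10 rescaled to the same total in every library and -0.01 in CPM. In CPM, which is not per length, 2 of 10 members kept their place in the order of levels with RANKL. With albiflorin Klf3, Klf4, Klf6, Klf10, Klf11 and Klf16 kept theirs. Per kb of mRNA, chosen after seeing the data, 6 of 10 kept their place with RANKL, and all but Klf9, Klf13 and Klf16 with albiflorin.

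Deviations from the group mean correlated at 0.104, -0.126 and -0.212 between same-numbered libraries, and at -0.111 to 0.223 between libraries of different number. With 3 libraries per group centred on their own mean, these values cannot decide whether replicate numbers pair the libraries. With the replicate block 1358 genes were higher and 1214 lower, the 4 member calls held, SP factors lower numbered 0 and glucocorticoid genes lower 1.

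List counts moved as follows, and the cause was not tested, also in fits that leave 1 library out and so rest on fewer libraries. SP factors lower were 2 with no filter, 0 with both FPKM fits and the mRNA-length trend removed, and 0 to 2 leaving out 1 library. Cofactors higher were 1 with both FPKM fits and the mRNA-length trend removed, cofactors lower were 2 with the mRNA-length trend removed, and cofactors higher 1 to 4 leaving out 1 library. Inputs to Klf2 lower were 1 with both FPKM fits and the gene-length trend removed, 3 with the mRNA-length trend removed, and 2 to 8 leaving out 1 library. Targets of KLF2 and KLF4 higher were 3 with DESeq2 and both length trends, 2 with both FPKM fits, and 2 to 4 leaving out 1 library. TGF-beta genes lower were 2 with RLE, DESeq2, limma-voom and the gene-length trend removed, 4 with no filter, 3 with the stricter filter, 0 with the mRNA-length trend removed, when higher were also 0, and leaving out 1 library 1 to 4 lower and 0 to 1 higher. Glucocorticoid genes lower were 1 with limma-voom, 0 with both FPKM fits and both length trends, and 0 to 2 leaving out 1 library.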
